A study of Danio rerio with 6 samples.

Results

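The genes described here encode transcription factors that direct the formation and survival of hair cells, the sensory receptors of the inner ear. They were chosen by name, and 7 of the 8 names asked for (atoh1a, pou4f1, pou4f2, pou4f3, gfi1aa, gfi1ab and emx2) matched a gene among the 31701 genes with values, while atoh1b was not analysed here. The samples came from adult female zebrafish of 11 to 13 months that carry Tg(pou4f3:GAP-GFP)s273t, in which the pou4f3 promoter drives a membrane-bound GFP. GFP-positive hair cells with a visible hair bundle were picked one at a time from the lagena, utricle and saccule, as were GFP-negative non-sensory surrounding cells (nsSCs) without a bundle from the same line. Each of the 3 samples per cell type pooled 1000 cells of several fish and of all 3 organs. Values are RPKM, a read number scaled to transcript length and to all mapped reads, so that levels of different genes can be compared per length. In bulk samples such as these, fewer cells that express a gene and less RNA in each cell cannot be told apart.

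In vertebrate ears the bHLH factor Atoh1 starts the hair cell program. Pou4f3, a POU homeodomain factor, and the zinc finger repressor Gfi1 act after it, and both are needed for hair cells to survive in mouse. The homeodomain factor Emx2 sets the orientation of hair bundles and is made in the hair cells on one side of the line along which bundle polarity reverses. Zebrafish hold duplicate copies of several of these genes, so that a role known from the single mouse gene may be split between copies.

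The 2 cell types did not overlap in total RPKM or in the number of genes above 0. RPKM of a sample summed to 704199 to 713194 in hair cells and to 976739 to 1012812 in nsSCs. Between 17308 and 18936 genes were above 0 in hair cell samples and between 22021 and 22470 in nsSC samples. All 13 entries of the hair cell marker list (12 genes, such as myo6b, otofb and s100s) were higher in hair cells, a direction that the collection by bundle and GFP sets. Of the 10 supporting cell markers listed, 8 were also called higher in hair cells by limma and 0 in nsSCs (0 at an unadjusted p under 0.05 and 0 by the unmoderated fit). Supporting cell markers summed to 489 to 495 RPKM in hair cell samples and to 113 to 117 RPKM in nsSCs, and none of them was at 0 in hair cells.

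Of the 6 genes other than pou4f3, 5 were called higher in hair cells and 1, pou4f2, higher in nsSCs. A call means an adjusted p under 0.05 from limma, fitted over all 22374 genes of at least 0.1 RPKM on average in one or both cell types, with a 2-fold or larger change on the log2(RPKM + 0.1) scale. Over all tested genes 66.4% were called, as 31.0% higher in hair cells and 35.4% higher in nsSCs. This balance turned with the scaling of the samples, from 6929 calls for hair cells and 7917 for nsSCs to 5471 and 9093 by median ratios and to 8756 and 7024 at the same total RPKM. Every gene described passed the filter on low values, pou4f2 through nsSCs only. In all 7 the 3 hair cell samples did not overlap the 3 nsSC samples. Samples did not overlap in 85.1% of all tested genes (42.5% higher in hair cells and 42.6% higher in nsSCs), so that this separation does not set the 7 apart. Without pou4f3, the median log2 fold change of the other 6 was 6.17, against 0.00 over all tested genes. The 6 include pou4f2, and the median depends on the pseudocount. With 1 RPKM in place of 0.1, emx2 was at 3.46, atoh1a at 3.65, pou4f1 at 5.04, gfi1ab at 6.98, gfi1aa at 8.50 and pou4f2 at -0.48.

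**Figure D1:**
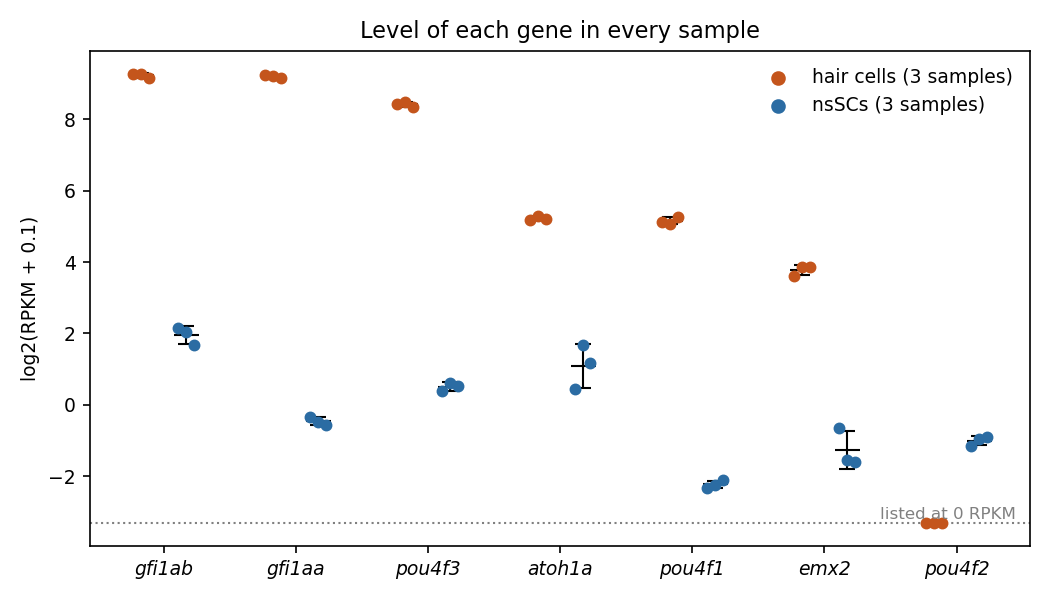
Level of each gene as log2(RPKM + 0.1) in the 3 hair cell samples (orange) and the 3 nsSC samples (blue), with black bars for the mean ± SD of that scale. The hair cell points lie above the nsSC points for every gene but pou4f2, whose 3 hair cell values sit on the dotted line that marks 0 RPKM.

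atoh1a (ENSDARG00000055294), the bHLH gene that starts hair cell formation, had RPKM of 36.37, 39.25 and 36.68 in hair cell replicates 1, 2 and 3, and of 1.26, 3.07 and 2.14 in nsSC replicates 1, 2 and 3. The hair cell samples were close to each other, while the nsSC samples spread widely. The mean was 37.4 ± 1.58 RPKM in hair cells, against 2.16 ± 0.905 in nsSCs (SD, n = 3 each), a difference of 4.14 on the log2 scale with a standard error of 0.28 (limma, adjusted p = 7.5e-06). The coefficient of variation of atoh1a among nsSC samples, 42.0%, was above the upper quartile (22.7%) of the 6544 genes between 1 and 5 RPKM there. Of the 6 genes with higher levels in hair cells, atoh1a had the highest nsSC level relative to its hair cell level. Its log2 fold change was the smallest on this scale, while with a pseudocount of 1 RPKM emx2 was at 3.46 and atoh1a at 3.65.

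Relative to hair cells, atoh1a was at 5.76% in nsSCs, against 0.388% for pou4f3. The hair cell markers had a median of 0.344%, and all but 1 of their 13 entries were below 1%. The exception was the less abundant of the entries named cdh23 (ENSDARG00000007561), at 3.81%. Supporting cell markers had a median of 8.05%, from 0.0276% for zpld1a to 93.7% for fabp7a. Of these 10 markers, 8 were above 5% and 1 was below 1%. As 8 of the 10 were themselves called higher in hair cells, their percentages do not identify the cells behind the nsSC level of atoh1a. As a ratio of means, the atoh1a value lay above all hair cell marker entries, but it rests on nsSC values from 1.26 to 3.07 RPKM. Among other genes called higher in hair cells, jag2b (5.86%) and gata3 (7.39%) were above it, and sox2 (3.36%) and bdnf (0.348%) below. The percentage therefore does not set atoh1a apart from such genes. The part of supporting cells in the level of atoh1a was not tested.

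In RPKM, pou4f3 was 8.79 to 9.44 times atoh1a in hair cells and 0.466 to 0.952 times in nsSCs. The pair was chosen after its values were seen, and the collection sets the pou4f3 levels, so that these ratios are a description only.

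**Figure D2:**
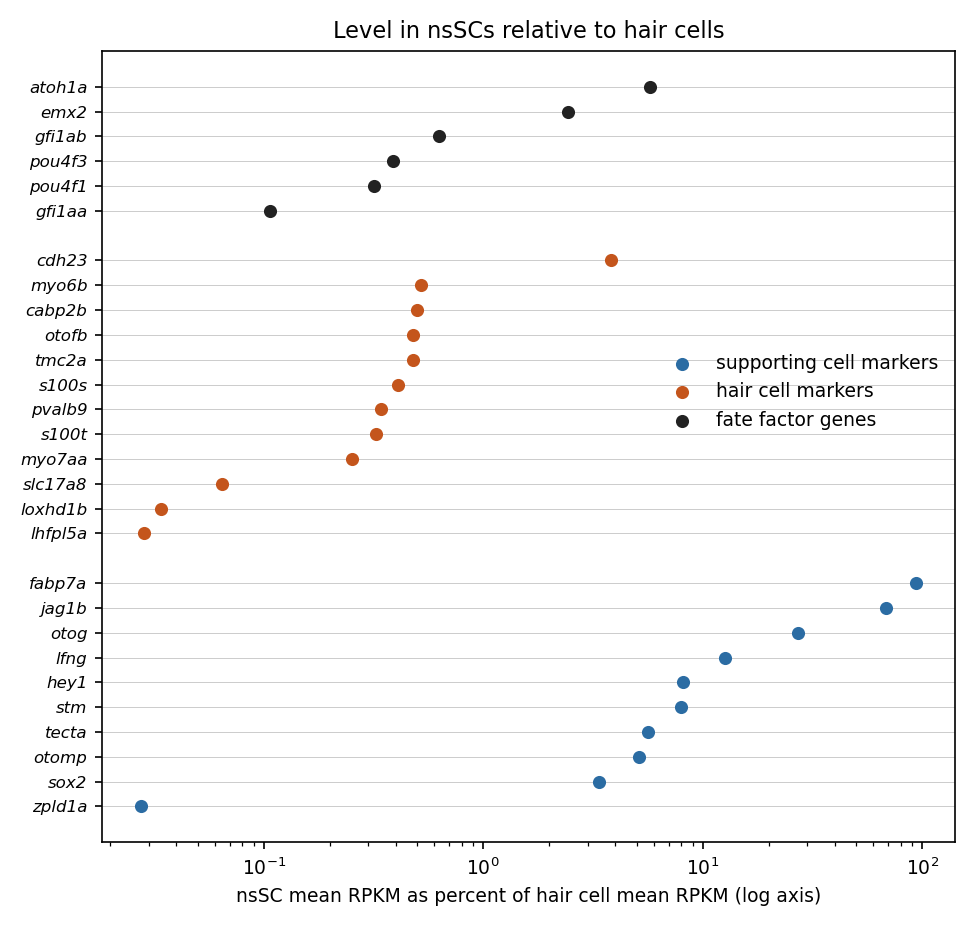
Mean RPKM in nsSCs as a percentage of the mean in hair cells (log axis) for the fate factor genes (black), hair cell markers (orange) and supporting cell markers (blue). atoh1a (5.76%) and emx2 (2.44%) lie to the right of the other 4 fate factors, which are between 0.107% and 0.632%. pou4f2 and the cdh23 entry at 0 in nsSCs cannot be drawn on this axis.

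Among the POU4 genes, pou4f3 and pou4f1 were high in hair cells and pou4f2 was not. pou4f3 (ENSDARG00000006206) had RPKM of 343.32, 360.57 and 322.35 in hair cell replicates 1, 2 and 3, and of 1.20, 1.43 and 1.35 in nsSC replicates 1, 2 and 3. The cells were chosen by GFP from the pou4f3 promoter, so that this difference is set by the design and is given as a description only. pou4f1 (ENSDARG00000005559), best known as a factor of sensory neurons in mouse, was at 34.83, 33.71 and 38.41 RPKM in hair cells. In nsSCs it was at 0.10, 0.11 and 0.13 RPKM, the lowest level of the 7 genes in that cell type. The log2 fold change of pou4f1 was 7.39 with a standard error of 0.12 (limma, adjusted p = 9.5e-09), and 5.04 with a pseudocount of 1 RPKM. In hair cells pou4f3 was 8.39 to 10.7 times pou4f1 and in nsSCs 10.4 to 13.0 times, ranges that overlap.

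pou4f2 (ENSDARG00000069737), known from retinal ganglion cells in mouse, was listed at 0 in each hair cell sample. Its RPKM of 0.35, 0.41 and 0.43 in nsSC replicates 1, 2 and 3 were low and had little spread. It was called higher in nsSCs (adjusted p = 1.3e-05 from limma), and no fold is given against values listed at 0. pou4f2 passed the filter on low values through nsSCs only, so that the call is a description and no support for its direction. The call rests on the low scale, since pou4f2 fell short of 2-fold with a pseudocount of 1 RPKM (log2 fold change -0.48) and was not tested at a minimum of 1 RPKM. Of 13 tested entries of the neuron marker list, 7 were higher in nsSCs and 3 in hair cells. With a pseudocount of 1 RPKM these counts were 5 and 1. The summed level of the list was 78.2 to 89.7 RPKM in nsSCs and 70.0 to 75.9 RPKM in hair cells. The neurotrophin receptor gene ntrk2a (62.3 ± 2.43 RPKM, SD, n = 3) made up most of the nsSC sum, and isl1 (58.7 ± 3.17 RPKM, SD, n = 3), a LIM factor gene that hair cells also express, most of the hair cell sum. The axonal filament gene neflb was at 1.84, 1.76 and 1.27 RPKM in nsSCs and at 0 to 0.03 RPKM in hair cells. The part of neurons in the pou4f2 level was not tested.

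The GFI1 copies were the most abundant of the 7 genes in hair cells. RPKM in hair cell replicates 1, 2 and 3 were 615.73, 616.67 and 573.04 for gfi1ab (ENSDARG00000044457) and 601.98, 590.67 and 569.81 for gfi1aa (ENSDARG00000020746). The copies overlapped in hair cells and ranked 134th and 137th of all genes by mean RPKM, while pou4f3 ranked 260th. In nsSCs gfi1ab was at 4.37, 3.97 and 3.07 RPKM, and gfi1aa at 0.69, 0.61 and 0.58 RPKM. There the copies did not overlap, and gfi1ab was the more abundant copy in each sample. gfi1aa had the largest change of the 7 genes, with a log2 fold change of 9.66 and a standard error of 0.07 (limma, adjusted p = 9.4e-10). For gfi1ab it was 7.28 with a standard error of 0.12 (limma, adjusted p = 1.1e-08).

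The ratio of the GFI1 copies did not overlap between the cell types. Single genes did not overlap in 85.1% of all those tested, and the share for ratios of other gene pairs was not computed. The separation of this ratio therefore does not set the pair apart. In RPKM, gfi1ab was 1.01 to 1.04 times gfi1aa in hair cells and 5.29 to 6.51 times in nsSCs. On the log2 scale the ratio was 0.03 ± 0.03 in hair cells and 2.41 ± 0.17 in nsSCs (SD, n = 3 each), a difference of -2.38 (exact two-sided permutation p = 0.1, the smallest possible). With a pseudocount of 1 RPKM this difference was -1.52. How reads that map to both copies were counted is not given in the sources used here, so that the split between copies is uncertain to that extent.
GFI1 genes also act in blood formation, and markers of blood cells moved with the nsSC samples. All 9 tested leukocyte markers were higher in nsSCs, with sums of 452 to 497 RPKM there and 9.55 to 11.3 RPKM in hair cells, where 4 of the 10 were listed at 0. All 9 entries of red blood cell markers were higher in nsSCs too, with sums of 20500 to 24300 RPKM there and 943 to 1020 RPKM in hair cells. gfi1b, the GFI1 relative of red cell and platelet precursors, was at 0.23, 0.51 and 0.05 RPKM in nsSCs and listed at 0 in hair cells. Blood markers were not alone in this direction. Higher in nsSCs were also 8 of 8 connective tissue, 7 of 8 glia and 5 of 5 endothelium markers, with 0 of each list called for hair cells. Glia markers summed to 4850 to 5030 RPKM in nsSCs and to 178 to 190 RPKM in hair cells. The part of blood cells, or of any other cell type, in the gfi1ab level of nsSCs was not tested.

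emx2 (ENSDARG00000039701) was the least abundant of the genes that rose in hair cells. It had RPKM of 12.10, 14.42 and 14.41 in hair cell replicates 1, 2 and 3, and of 0.53, 0.24 and 0.23 in nsSC replicates 1, 2 and 3. nsSC replicate 1 was the highest nsSC sample for emx2 and the lowest for atoh1a. The means were 13.6 ± 1.34 and 0.333 ± 0.170 RPKM (SD, n = 3 each), which on the log2 scale differed by 5.05 with a standard error of 0.27 (limma, adjusted p = 1.8e-06). Its relative spread in hair cells, 9.80%, was the widest of the 6 genes found there and lay just above the upper quartile (9.13%) of the 4345 genes between 10 and 50 RPKM. Since the hair cells of all 3 organs were pooled, the share of hair cells that express emx2 is not known from these values.

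By mean level in hair cells, the order was gfi1ab (602 RPKM), gfi1aa (587 RPKM), pou4f3 (342 RPKM), atoh1a (37.4 RPKM), pou4f1 (35.6 RPKM), emx2 (13.6 RPKM) and pou4f2 (0). Neighbours whose samples overlapped were gfi1ab with gfi1aa and atoh1a with pou4f1. In nsSCs the order was gfi1ab (3.80 RPKM), atoh1a (2.16 RPKM), pou4f3 (1.33 RPKM), gfi1aa (0.627 RPKM), pou4f2 (0.397 RPKM), emx2 (0.333 RPKM) and pou4f1 (0.113 RPKM). There the lowest gfi1ab sample equalled the highest atoh1a sample at 3.07 RPKM, atoh1a overlapped pou4f3, and pou4f2 overlapped emx2.

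**Figure D3:**
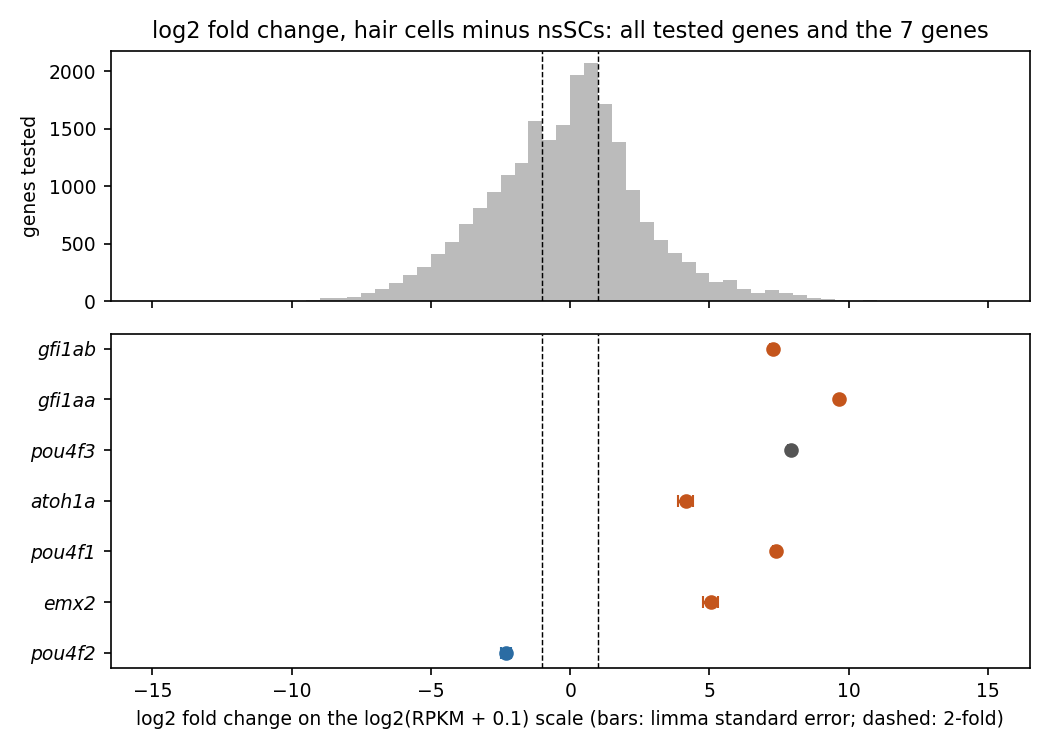
Upper panel: number of tested genes by log2 fold change, hair cells minus nsSCs, on the log2(RPKM + 0.1) scale. Lower panel: the 7 genes with limma standard errors, pou4f3 in grey because its direction is set by the collection. The 5 genes in orange run from 4.14 for atoh1a to 9.66 for gfi1aa, and the fitted value of pou4f2 (blue) depends on the pseudocount.

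Relatives of these factors were called in both directions, and the counts for both cell types depended on the settings for low values. Of 22 tested entries among other bHLH, POU, GFI1 and EMX genes, the call was for hair cells in 5 and for nsSCs in 13, and 4 were not called (median log2 fold change -2.01). With a pseudocount of 1 RPKM, which damps changes of genes below that level, the call was for hair cells in 2 and for nsSCs in 5 (median -0.52). With no filter on low values 12 of 26 were called for nsSCs and the median was -1.15. pou3f3b, a POU gene of the nervous system, averaged 21.8 ± 1.11 RPKM in hair cells, against 2.81 ± 0.425 in nsSCs (SD, n = 3 each). Its copy pou3f3a was at 16.0 ± 0.438 and 25.5 ± 1.55 RPKM and was not called. The bHLH gene atoh7, a factor of retinal ganglion cells, was at 1.68, 1.39 and 1.29 RPKM in hair cells and listed at 0 in nsSCs. atoh8 averaged 2.49 ± 0.261 RPKM in hair cells, against 8.82 ± 0.763 in nsSCs (SD, n = 3 each). ascl1b was at 11.44, 11.11 and 10.12 RPKM in nsSCs and listed at 0 in hair cells.

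Most genes of the factors' partners were not called. Among 8 tested genes for E-proteins, which pair with Atoh1, and for Id proteins, which take E-proteins out of such pairs, the call was for hair cells in 2 and for nsSCs in 1, and 5 were not called (median log2 fold change 0.07). The E-protein gene tcf3a was at 4.97 ± 0.799 and 1.35 ± 0.287 RPKM, and id2a at 117 ± 1.88 and 28.4 ± 1.02 RPKM in hair cells and nsSCs (SD, n = 3 each). id3 was at 11.4 ± 0.935 and 28.9 ± 1.73 RPKM (not called at the same total RPKM), and id1, the most abundant, at 145 ± 2.26 and 136 ± 1.23 RPKM, not called. The sign of this list's median followed the scaling of the samples, with -0.41 by median ratios and 0.55 at the same total RPKM. So did that of the corepressors described next, with -0.54 and 0.30, and their calls for hair cells and nsSCs were 0 and 4 by median ratios and 2 and 2 at the same total RPKM. Of 13 tested entries for the corepressor complexes that Gfi1 recruits, the call was for hair cells in 0 and for nsSCs in 2, and 11 were not called by limma (median -0.15). At an unadjusted p under 0.05 2 were higher in hair cells, and 0 by the unmoderated fit. The histone deacetylase gene hdac1 was at 110 ± 2.07 and 125 ± 7.61 RPKM, and its sign changed at the same total RPKM, while CBFA2T3, which was called, was at 0.113 ± 0.0306 and 2.15 ± 0.140 RPKM.

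Genes that act before atoh1 or after the fate factors were higher in hair cells in most cases. Of 17 tested entries of otic and Notch target genes that act before atoh1, the call was for hair cells in 10 and for nsSCs in 2, and 5 were not called (median log2 fold change 3.46). gata3 averaged 341 ± 7.59 RPKM in hair cells, against 25.2 ± 0.462 in nsSCs, and eya1 200 ± 2.41 and 8.26 ± 0.490 RPKM (SD, n = 3 each). six1a, a partner of eya1 in Atoh1 activation in mouse, was at 80.9 ± 3.77 and 58.4 ± 3.74 RPKM and was not called, with a sign that changed under median-ratio scaling. foxi1, an otic placode and ionocyte factor, was at 9.90, 8.91 and 8.37 RPKM in nsSCs and listed at 0 in hair cells. The list holds sox2 and hey1, which are supporting cell markers as well. Its 10 calls for hair cells include the Notch target genes her4.1 and hey1 and both entries named her4.2. The her4 entries were counted apart, and how reads that map to more than 1 of them were counted is not given.
Of 18 tested genes that act after the fate factors, the call was for hair cells in 11 and for nsSCs in 3, and 4 were not called (median 2.70). bdnf, a neurotrophin gene that depends on Pou4f3 in mouse, had RPKM of 396.00, 417.08 and 412.39 in hair cells, against 1.43, 1.54 and 1.30 in nsSCs. rasd1 was at 313 ± 6.47 and 24.3 ± 0.172 RPKM (SD, n = 3 each). anxa4 (24.1 ± 1.00 and 75.6 ± 4.79 RPKM) and caprin1b (12.7 ± 1.46 and 42.5 ± 1.55 RPKM) were higher in nsSCs, and caprin1a (25.9 ± 0.944 and 16.8 ± 0.870 RPKM) was not called.
Of 8 tested genes of bundle orientation linked to Emx2, the call was for hair cells in 6 and for nsSCs in 1, and 1 was not called (median 2.23). The 6 include stk32a, which EMX2 represses in mouse hair cells. The G protein genes gnai1 and gnai2b were at 222 ± 4.74 and 52.1 ± 0.956 RPKM in hair cells, against 40.0 ± 1.50 and 13.1 ± 1.01 in nsSCs (SD, n = 3 each). gnai3 was at 0.81, 0.89 and 0.23 RPKM in nsSCs and listed at 0 in hair cells, and it fell short of 2-fold with a pseudocount of 1 RPKM. These lists were written with results of these samples known, and their counts are descriptions beside the 31.0% and 35.4% of all genes.

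**Figure D4:**
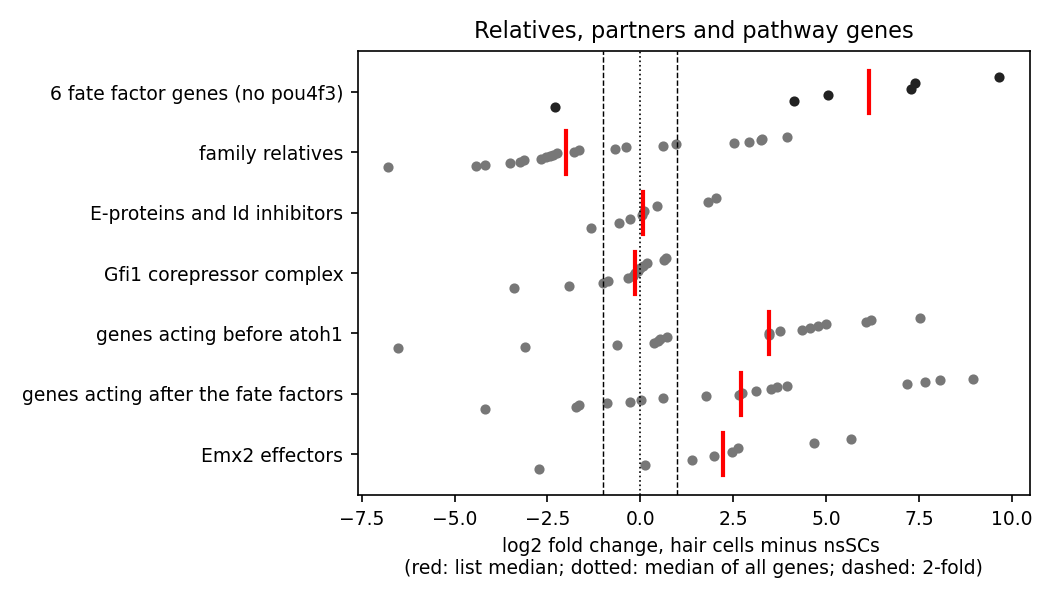
log2 fold change, hair cells minus nsSCs, of each tested gene (points) in the fate factor group and in 6 lists of relatives, partners and pathway genes, with red bars for list medians and dashed lines at 2-fold. The median is 6.17 for the 6 fate factors without pou4f3, which include pou4f2, and it depends on the pseudocount. It is -2.01 for their relatives, 0.07 for E-proteins and Id genes and -0.15 for the Gfi1 corepressors. It is 3.46 for genes acting before atoh1, 2.70 for genes acting after the fate factors and 2.23 for Emx2 effectors.

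For each fate factor gene of at least 1 RPKM, the tested genes of most similar pattern were found by the Euclidean distance between centred log2(RPKM + 0.1) profiles over the 6 samples. This measure follows the difference between cell types and not the level. Nearest to atoh1a was spef2, at a distance of 0.204, with 4.65 ± 0.398 RPKM in hair cells, against 0.190 ± 0.131 in nsSCs (SD, n = 3 each). Nearest to gfi1ab was the Delta ligand gene dlb, at 0.09, with 19.8 ± 0.537 and 0.0233 ± 0.0208 RPKM, followed by gltpa, a glycolipid transfer protein gene, at 0.165, with 608 ± 3.51 and 3.62 ± 0.727 RPKM. The latter matched gfi1ab in level as well. Nearest to gfi1aa was the SOX gene sox1a, at 0.172, with 93.3 ± 3.21 RPKM in hair cells, against 0.00667 ± 0.0115 in nsSCs. Nearest to emx2 was slc30a10, a metal ion transporter gene, at 0.238, with 7.20 ± 0.494 and 0.123 ± 0.0945 RPKM. For pou4f1 and pou4f3 all 3 nearest genes were listed at 0 in nsSCs. Nearest were BX649608.2 to pou4f1, at 0.154, and ECT2L to pou4f3, at 0.199. In place 3 for pou4f1 was the Usher syndrome gene clrn1 (16.6 ± 0.991 RPKM in hair cells), at 0.207. In place 2 for pou4f3 was TMPRSS3_(1_of_many), a serine protease gene (23.3 ± 0.826 RPKM), at 0.201. The pou4f3 profile is set by the collection. All these distances depend on the pseudocount, since several of the genes were near 0 in nsSCs. With a pseudocount of 1 RPKM the log2 fold change was 4.34 for dlb against 6.98 for gfi1ab, 6.55 for sox1a against 8.50 for gfi1aa and 2.25 for spef2 against 3.65 for atoh1a. It was 7.06 for gltpa, close to gfi1ab. For clrn1 it was 4.13, against 5.04 for pou4f1, and for TMPRSS3_(1_of_many) 4.60, against 7.20 for pou4f3.

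The calls of the 5 genes higher in hair cells held in each of the 15 alternative settings, which include leaving out each sample. With median-ratio scaling, which moved the median of all genes from 0.00 to -0.48, and with scaling to the same total RPKM, which moved it to 0.49, the log2 fold change of atoh1a was 3.67 and 4.62. The lowest value of any of the 5 over all settings was 3.46, for emx2 with a pseudocount of 1 RPKM. The number of cells or fish behind a value is fixed by the pooling, and the counting error of the low nsSC values is not known, since RPKM hold no read numbers.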

How the data were processed

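RNA of 3 hair cell and 3 nsSC samples was amplified by the authors with a SMART-Seq v4 low input kit, made into Nextera libraries and sequenced as paired reads. The deposited values are RPKM, which the authors computed in CLC Genomics Workbench after mapping to GRCz10. HTSeq count is also named, and versions are not given in the sources used here. The values are rounded to 2 decimals and hold no read numbers, so that the precision from depth is not known for single genes. Of 35919 entries, 31701 held values and an Ensembl identifier. The RPKM columns of these 3 hair cell and 3 nsSC samples were used.

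The 22374 genes averaging 0.1 RPKM or more in either cell type were fitted on log2(RPKM + 0.1) with limma 3.58.1, run in R 4.3.3 with statmod 1.5.0, using trended and robust moderation and Benjamini-Hochberg adjustment over all of them. Calls needed an adjusted p under 0.05 and a 2-fold change. This scale understates changes of low genes. The same code was tested on simulated data. The gfi1ab to gfi1aa ratio was compared by exact two-sided permutation, which cannot go below 0.1. Ratios, distances and plots used Python 3.11.15, numpy 2.4.6, pandas 2.3.3 and matplotlib 3.10.9.

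The genes and the other gene lists were chosen with earlier results of these data known. Named genes are the fate factors, up to 2 called genes in each direction and 1 gene not called per pathway list by mean RPKM, and the 3 nearest genes of each fate factor. Others named were chosen after their values were seen. The authors describe the samples of both cell types as biological replicates, and each pooled cells of several fish. Both cell types were picked from each fish, and which samples share fish is not stated, so that p-values measure the spread between these pools. The alternatives were other pseudocounts, filters and scalings, plain and unmoderated fits, a replicate block and leaving out each sample. Sequences and coordinates were not used here.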

Additional observations from a re-analysis of the deposited data

How the results depend on the processing

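The 5 fate factor genes called higher in hair cells were called under each of the 15 alternatives. The number higher in nsSCs, 1 (pou4f2), was 0 with a pseudocount of 1 RPKM and 0 with a minimum of 1 RPKM, where pou4f2 was not tested. With a pseudocount of 1 RPKM the genes called over the whole table went from 14846 to 9794 and those higher in nsSCs from 7917 to 4516, and with a minimum of 1 RPKM the latter were 5046, with fewer genes tested. Of 749 values of 51 named genes under the alternatives, 738 kept their direction and their side of the thresholds, 5 lost the call, 2 gained it and 4 changed sign. The sign changes were in genes that were not called: with median-ratio scaling id1 was at -0.39, six1a at -0.01 and gnai2a at -0.35, and with scaling to the same total RPKM hdac1 was at 0.30, all as log2 fold changes. Leaving out a sample, the log2 fold change ran from 3.82 to 4.43 for atoh1a, from 4.89 to 5.35 for emx2 and from 7.14 to 7.39 for gfi1ab, and the gfi1ab to gfi1aa difference from -2.48 to -2.33, and other pseudocounts took the latter to -2.54 and -1.52. The replicate numbers share nothing that the labels name, so that same-numbered samples were not treated as pairs. Their deviations over all tested genes correlated at -0.0468, 0.0227 and 0.00132. Such values cannot show that the samples shared no fish, which is not known. The replicate block gave 6953 calls for hair cells and 7934 for nsSCs and changed no call of a fate factor gene. The planned atoh1b to atoh1a ratio, promoter motifs and protein identities were not run, since atoh1b and sequences were not analysed here. RPKM hold no read numbers, which limits the values below 1 RPKM most.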

Other observations

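Other proneural bHLH genes, looked at after their values were seen, split between the cell types at low levels. neurod1, a factor of developing otic neurons, had RPKM of 2.00, 2.13 and 2.19 in nsSC replicates 1, 2 and 3, against 0 to 0.01 in hair cells. neurog1, which starts the otic neuron program, was at 1.02, 0.74 and 1.52 RPKM in nsSCs and listed at 0 in all 3 hair cell samples. neurod4 was at 0.68, 0.85 and 1.02 RPKM in nsSCs and likewise listed at 0 in hair cells. In contrast, neurod2 was at 1.39, 0.93 and 0.48 RPKM and ascl1a at 0.64, 1.03 and 0.93 RPKM in hair cells, both listed at 0 in nsSCs. Each of the 5 genes was called by limma in the direction given, at levels where the counting error is not known. Each passed the filter on low values through 1 cell type only, so that the calls lean on the pseudocount. With a pseudocount of 1 RPKM the only 2 relatives called for hair cells were pou3f3b and atoh7, so that neurod2 and ascl1a lost the call. Calls of relatives for nsSCs went from 13 to 5.

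Among the genes that act after the fate factors, both barhl1 copies were called higher in hair cells, while barhl2 was called higher in nsSCs. barhl1b was at 54.51, 55.05 and 52.88 RPKM and barhl1a at 23.25, 21.97 and 21.97 RPKM in hair cells, and both were at 0.04 RPKM or less in nsSCs. barhl2 was listed at 0 in hair cells, against RPKM of 2.58, 1.61 and 1.19 in nsSCs. LHX3, a LIM factor gene of hair cells, was at 12.24, 16.22 and 14.92 RPKM in hair cells and listed at 0 in nsSCs. stk32a, a kinase gene that EMX2 represses in mouse hair cells, had RPKM of 34.03, 36.67 and 33.40 in hair cells, above emx2 in each sample, against 1.12, 1.44 and 1.24 in nsSCs. Hair cells of both bundle orientations were pooled, so that whether emx2 and stk32a were in the same cells was not tested.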
